A study of Bos taurus with 6 samples.

Results

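The cytosolic ribosomal proteins were taken as every probe set of the array whose annotated symbol, given alone, was RPL or RPS followed by digits and an optional A, L, X, Y or Z, or was RPLP0, RPLP1, RPLP2 or RPSA, with the RPS6K kinases left out. This gave 87 of 24036 probe sets, for 64 of the 9155 genes whose symbol stands alone on a probe set. Of them, 53 probe sets of 40 genes belonged to the large subunit and 34 probe sets of 24 genes to the small subunit. The embryos were Bos taurus embryos made by in vitro fertilization (IVF) of oocytes from abattoir ovaries, and all had compacted before they were graded on day 8. Degenerative embryos were those that had not made a proper transition from morula to blastocyst, and blastocysts were those with a distinct inner cell mass and an obvious blastocoele. RNA of 3 pools of degenerative embryos and 3 pools of blastocysts, lettered A, B and C in each group and made of 20 embryos each, was amplified and hybridized to the Affymetrix Bovine Genome Array. Each array therefore averaged over 20 embryos, and fewer cells of a type cannot be told apart from less RNA per cell.

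The ribosome is built from ribosomal RNA and a large set of small, basic proteins, and each subunit holds its own proteins, most of them once. The large subunit joins amino acids and carries the tunnel through which the new peptide leaves, whereas the small subunit reads the mRNA. Ribosomal protein mRNAs are among the most abundant in growing cells and share a terminal oligopyrimidine tract at the 5′ end, through which MTOR signaling sets their translation. The bovine embryo takes over ribosome synthesis from the oocyte when its own genome is switched on, and the blastocyst is a stage of rapid protein synthesis.

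Values were GCRMA log2 expression values, on a scale whose floor was 2.12 and whose highest value was 16.12. After removal of 20 control probe sets and 5079 that did not vary, 18937 probe sets were tested, of which 85 were ribosomal protein probe sets of 63 genes. The other 2 members, the single probe set of RPL3L, a muscle paralog of RPL3, and 1 probe set of RPS19, lay at the floor in all 6 pools. Over the tested probe sets, pools correlated at 0.936 to 0.987 among degenerative embryos and at 0.972 to 0.994 among blastocysts. Of the marker lists, the 3 inner cell mass genes measured had differences of 0.48 (POU5F1), 1.03 (SOX2) and 0.51 (KLF4), with limma adjusted p of 0.601 to 0.628, and each was highest in degenerative pool A. Their summed level was 14.18 to 14.98 in degenerative pools and 13.93 to 14.06 in blastocyst pools. The 4 trophectoderm genes measured (TEAD4, ELF5, KRT8 and KRT18) summed to 15.19 to 15.54 in degenerative pools and 15.28 to 15.68 in blastocyst pools. They went both ways in degenerative pool A. TEAD4 and ELF5 were lowest of the degenerative pools there, at 8.33 and 2.90, and KRT8 and KRT18 were highest, at 8.58 and 15.52. Of the 11 cumulus and granulosa genes measured, AMH, FOXL2 and INHA lay at or next to the floor throughout. HSD3B1, HAS2, STAR and INHBA were the 4 with a mean of at least 5. Of the 9 tested, 5 were lower and 4 higher in degenerative embryos. INHBA read 8.70, 9.03 and 7.84 in degenerative pools, against 3.71, 6.64 and 7.68 in blastocyst pools (limma adjusted p = 0.624). PTX3 read 2.12, 8.36 and 7.22 in degenerative pools, against 2.25, 2.12 and 4.27 in blastocyst pools (adjusted p = 0.700 by limma). CYP19A1 went the other way, at 2.62, 2.55 and 2.75 in degenerative pools, against 2.60, 4.87 and 6.69 in blastocyst pools (adjusted p = 0.649 by limma). Among sperm genes, PRM2, ODF1 and ACR lay at the floor, whereas TNP1 read 4.51 to 5.69 in degenerative pools and 4.43 to 7.42 in blastocyst pools. The summed level of the 11 cumulus and granulosa genes measured was 12.02 to 12.53 in degenerative pools and 12.17 to 12.61 in blastocyst pools, and that of the 6 sperm genes was 5.67 to 6.35 in degenerative pools and 5.64 to 7.64 in blastocyst pools. The part of other cell types in the results was not tested.

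Ribosomal protein transcripts were near the top of the scale in both kinds of embryo and differed little between them. Of the 87 probe sets, 61 had a mean of at least 12 over the 6 pools, covering 59 of the 64 genes, 17 had a mean between 5 and 12, and 9 had a mean under 5. Of the 85 tested, 64 were lower and 21 higher in degenerative embryos, that is 75.3% lower against 48.3% of all tested probe sets. Their median difference, degenerative minus blastocyst, was -0.12 on the log2 scale, against 0.0012 over all tested probe sets. The differences ran from -1.54 to 0.41, and 63 of them (74.1%) lay within 0.25 of 0, where 47.0% of all tested probe sets lay. By 2-fold or more, 3 members (3.53%) differed, against 10.9% of all tested probe sets. The large subunit had a median of -0.18 with 43 of 52 probe sets lower, and the small subunit a median of -0.055 with 21 of 33 lower. Whether the subunits differ was not tested. Among probe sets whose mean was 12 or more, the median was -0.13 over 61 members and -0.041 over all 1025 tested. Within 0.25 of 0 lay 78.7% of these members and 55.4% of all such probe sets. A 2-fold difference was seen in 0 of these members and in 3.22% of all such probe sets.

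**Figure D1:**
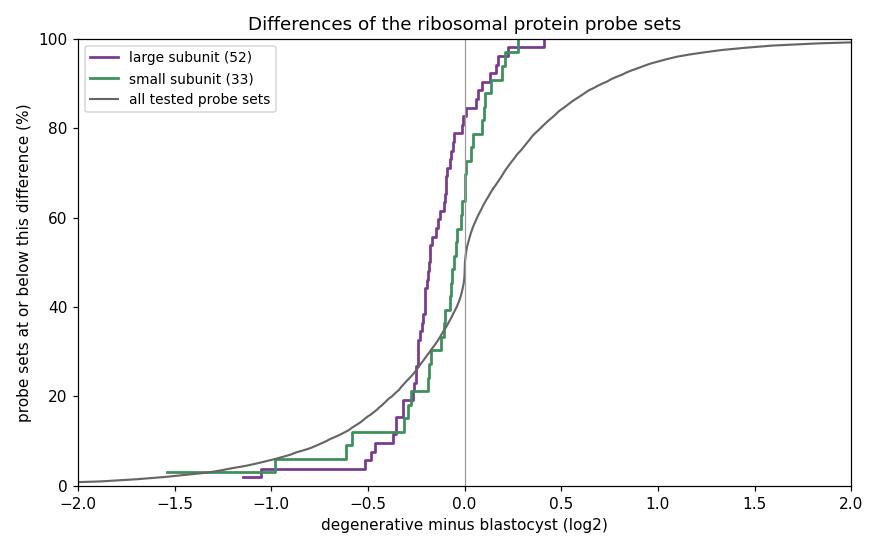
Cumulative share of probe sets (%) against the difference between degenerative embryos and blastocysts (log2) for large subunit, small subunit and all tested probe sets. The ribosomal protein curves are steep around 0, with 63 of 85 members within 0.25 of it, and the large subunit curve lies left of 0 with a median of -0.18.

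No ribosomal protein probe set passed the moderated test of limma at an adjusted p of 0.15, the smallest adjusted p being 0.227. That threshold called 4 of 18937 probe sets (0.0211%), so few calls of any kind were made. With significance analysis of microarrays (SAM) at a false discovery rate of 15%, 67 probe sets (0.354%) were called and 1 of them was a member. At an unadjusted limma p of 0.05, 3 of 85 members (3.53%) were lower in degenerative embryos, where 5.27% of all tested probe sets were, and 0 members were higher, where 3.34% of all were. Likewise 7 members (8.24%) had all degenerative pools below all blastocyst pools, against 8.93% of all tested probe sets, and 0 had them all above, against 6.48% of all. These shares of lower members were no larger than those of the array as a whole. The counts at the unadjusted p rest on few probe sets: with the replicate block, 1 member in place of 3 was lower.

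The member called by SAM was the dimmer of the 2 probe sets annotated as RPL24. RPL24 is a large-subunit protein that reaches across to the small subunit. Its mutation in the mouse gives the Belly spot and tail phenotype. The dimmer probe set read 9.37, 9.38 and 9.70 in degenerative pools A, B and C, against 10.59, 10.63 and 10.67 in the blastocyst pools. The highest degenerative pool lay well below the lowest blastocyst pool, with a narrow spread in each group. The difference was -1.15 ± 0.11 (SE, 3 pools each) on the log2 scale, a 2.22-fold lower value. The adjusted p by limma was 0.227 (0.491 with the replicate block, 0.0768 without degenerative pool C). By SAM the permutation p was 2.11e-04. It ranks the statistic among those of all 18937 tested probe sets pooled over 20 relabelings, and is no p-value from relabeling this probe set alone. The brighter RPL24 probe set read 13.04, 13.79 and 13.54 in degenerative embryos, against 13.74, 13.69 and 13.64 in blastocysts, so that only degenerative pool A stood clearly below. Its difference was -0.23 ± 0.21 (SE, adjusted p = 0.737 by limma), and -0.02 without that pool. The lower value was therefore carried by 1 of the 2 probe sets annotated as RPL24. Among the transcripts that the paper lists as called by SAM with at least a 2-fold difference, RPL24 is absent. That list holds TGFBR3, lower by 2.22-fold and with a p close to that of the dimmer probe set. Whether the dimmer probe set measures RPL24 was not tested.

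Another 6 probe sets had groups that did not overlap, most of them with a small difference. RPL10A, a protein of the large subunit's side stalk, read 13.02, 13.41 and 13.21 in degenerative pools, against 13.61, 13.43 and 13.67 in blastocyst pools. Its difference was -0.36 ± 0.13 (SE, limma adjusted p = 0.571). RPL14, at the outer face of the large subunit, read 14.55, 14.62 and 14.72 in degenerative pools, against 14.84, 14.74 and 14.92 in blastocyst pools, a difference of -0.20 ± 0.07 (SE, limma adjusted p = 0.574). With RPL24, these were the 3 members under an unadjusted p of 0.05, and in both genes the highest degenerative pool nearly reached the lowest blastocyst pool. RPL5, which binds the small RNA of the large subunit and, when free in human cells, the ubiquitin ligase MDM2, read 15.19, 15.15 and 15.15 in degenerative pools, against 15.32, 15.22 and 15.24 in blastocyst pools, a difference of -0.10 ± 0.05 (SE, limma adjusted p = 0.628). RPL30, the brightest probe set of RPL9 and the dimmer probe set of RPS15A also had separate groups, with differences of -0.25, -0.26 and -0.98.

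The lower median of the members rested mainly on degenerative pool A. The members' median deviation from their own mean over the 6 pools was -0.38 in degenerative pool A, 0.11 in B and 0.035 in C, against -0.012, 0.024 and 0.19 in blastocyst pools A, B and C. Over all tested probe sets, the pools' median deviations lay between -0.019 and -0.0027. Degenerative pool A was the lowest of its group for 66 of 85 members (77.6%), where it was the lowest for 35.0% of all tested probe sets. Without it, the members' median difference was 0.018 and 38 of 85 were lower, with medians of -0.016 for the large and 0.070 for the small subunit. Without both A pools the median was -0.0035 with 43 of 85 lower. Split by subunit, the medians without both A pools were -0.041 for the large and 0.048 for the small subunit. Leaving out degenerative pool A thus turned the sign over all members and in the small subunit, but not in the large subunit. The cumulus and granulosa genes went both ways in degenerative pool A, with a median of -0.059 against degenerative pools B and C over the 9 tested. HSD3B1, a steroid-making enzyme, read 6.12, 11.52 and 11.12 in degenerative pools A, B and C, against 11.51, 11.64 and 12.09 in blastocyst pools, and PTX3, STAR and TNFAIP6 were also lowest of the degenerative pools in A. HAS2, a hyaluronan synthase, was highest there, at 11.80, 10.55 and 9.92 in degenerative pools A, B and C. The part of these cells in the result was not tested.

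**Figure D2:**
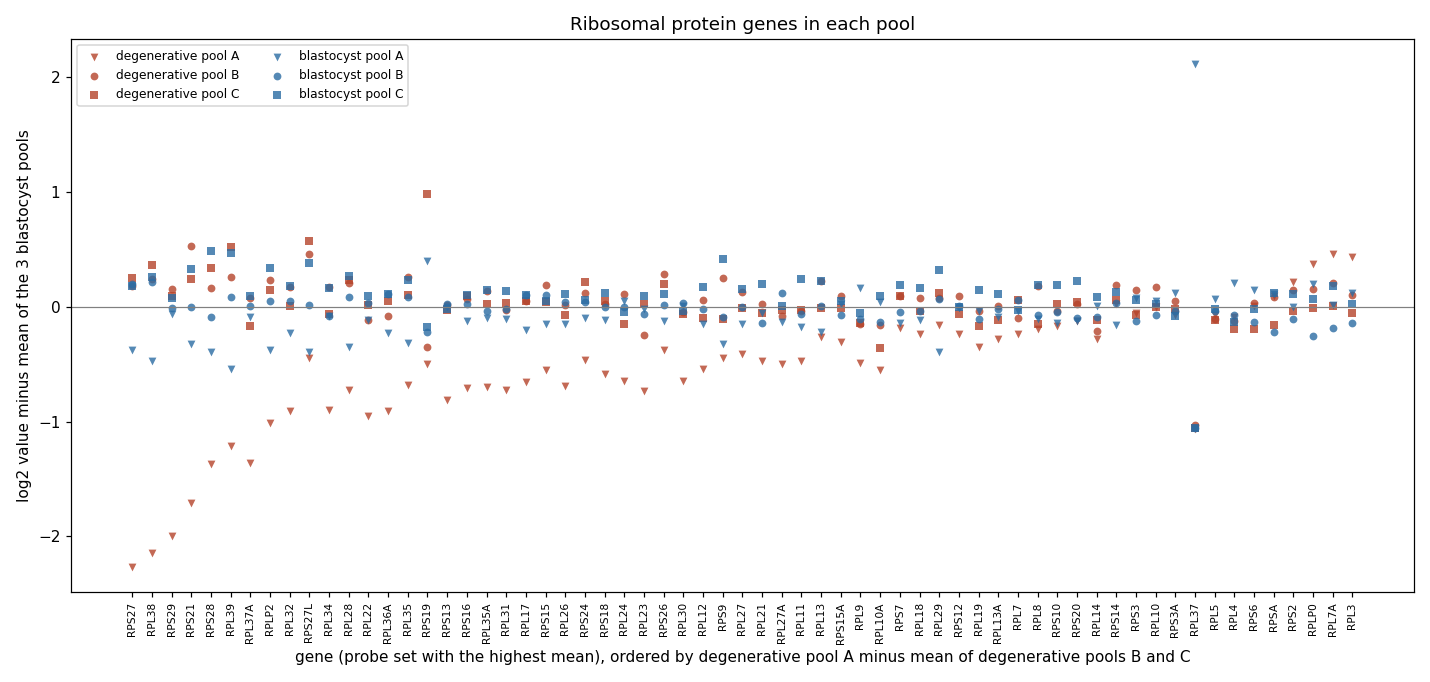
Log2 value in each pool minus the mean of the 3 blastocyst pools, for the 63 ribosomal protein genes (tested brightest probe set of each), ordered from left to right by how far degenerative pool A lay from pools B and C. Degenerative pool A (red triangles) is below 0 for most genes and lowest for RPS27, RPL38 and RPS29, while degenerative pools B and C mostly lie among the blastocyst pools.

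The members that departed most in that pool encode some of the smallest ribosomal proteins. RPS27, a zinc-binding protein of the small subunit, read 10.35 in degenerative pool A and 12.79 and 12.86 in B and C, against 12.24, 12.81 and 12.79 in blastocyst pools A, B and C. RPL38, whose loss in the mouse causes the Tail short skeletal phenotype, read 12.43, 14.82 and 14.94 in degenerative pools, against 14.10, 14.79 and 14.84 in blastocyst pools. RPS29, a zinc-binding protein of the small subunit head, read 11.82, 13.98 and 13.92 in degenerative pools, against 13.76, 13.81 and 13.90 in blastocyst pools. In all 3 genes degenerative pools B and C lay within the range of the blastocyst pools or slightly above it, and pool A lay below every other pool. Their differences of -0.61, -0.52 and -0.58 were smaller than their standard errors of 0.78, 0.78 and 0.66, and without degenerative pool A the differences were 0.21, 0.30 and 0.12. RPL37A, a zinc-binding protein of the large subunit, read 13.11, 14.54 and 14.30 in degenerative pools, against 14.38, 14.47 and 14.56 in blastocyst pools. RPS21 read 11.93, 14.17 and 13.88 in degenerative pools, against 13.31, 13.64 and 13.97 in blastocyst pools. RPL39, a short protein that lines the exit tunnel, read 11.74, 13.21 and 13.47 in degenerative pools, against 12.41, 13.03 and 13.42 in blastocyst pools. In all 6 of these genes pool A was the lowest pool of its group in both kinds of embryo.

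Members were therefore grouped by the size of the encoded protein, from textbook knowledge and after these values had been seen, so the grouping is given as a description with no test. In the 10 genes of short proteins (RPL36A, RPL37, RPL37A, RPL38, RPL39, RPS21, RPS27, RPS27L, RPS28 and RPS29), the median of pool A minus the mean of pools B and C was -1.61 in degenerative embryos and -0.52 in blastocysts. In the 12 genes of long proteins (RPL3, RPL4, RPL5, RPL7, RPL7A, RPL8, RPLP0, RPS2, RPS3, RPS3A, RPS6 and RPSA), it was 0.078 in degenerative embryos and 0.13 in blastocysts. The other 41 genes lay between, at -0.52 in degenerative embryos and -0.18 in blastocysts, and in all 41 of them pool A was the lowest degenerative pool. Degenerative pool A was the lowest of its group in 10 of 10 short and 3 of 12 long proteins, and blastocyst pool A in 9 of 10 short and 2 of 12 long. The difference between degenerative embryos and blastocysts had a median of -0.40 in short proteins (-0.32 without RPL37) and -0.0049 in long ones. Without degenerative pool A these medians were 0.23 (0.25 without RPL37) and 0.013. Across the 59 genes with a mean of at least 12, the deviation of pool A from B and C correlated between the groups at a Pearson r of 0.667, and across all 1025 tested probe sets with such a mean at 0.526. Genes are no independent replicates, and the arrays share probes and normalization.

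**Figure D3:**
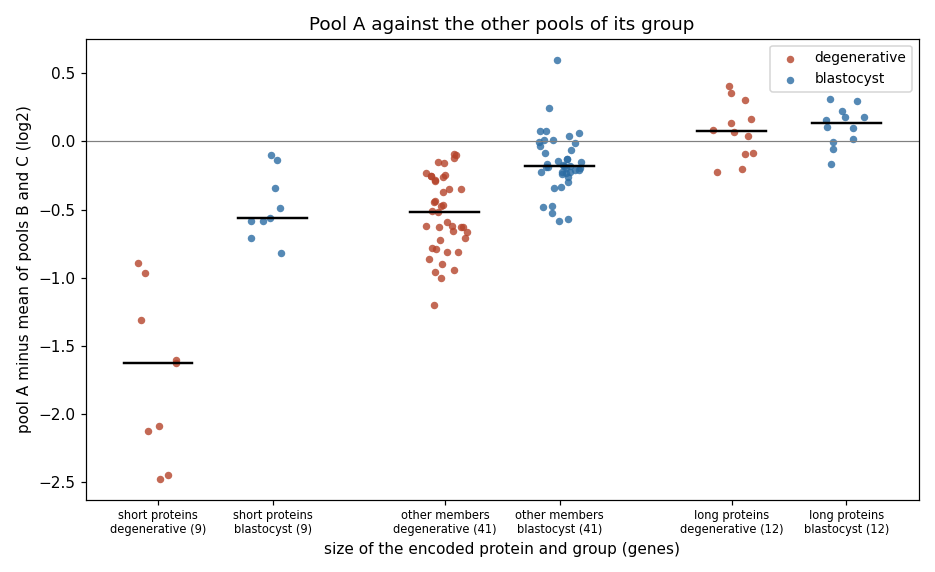
Pool A minus the mean of pools B and C of the same group (log2), 1 point per gene, for members encoding short, other and long proteins, with degenerative embryos to the left of blastocysts and the median as a bar. RPL37, at the floor in 5 pools, is left out, so 9 short proteins are drawn. Pool A lies farthest below for short proteins, with degenerative embryos farther below than blastocysts, and around 0 for long ones.

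The array carries probe sets for the 3′ and the 5′ end of 4 control transcripts, and the gap between the ends differed between pools. For the transcript named eIF-4E, 3′ minus 5′ was 9.87, 9.80 and 9.13 in degenerative pools A, B and C, against 6.60, 8.59 and 8.36 in blastocyst pools. For gapd it was 2.51, 2.52 and 2.48 in degenerative pools, against 1.83, 2.89 and 2.57 in blastocyst pools. Blastocyst pool A had the smallest gap of its group for all 4 transcripts, whereas degenerative pool A had the smallest of its group for Cyph only. The part of labeling in the low values of pool A was not tested.

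Members were also sorted by place in the ribosome, as a description only, since no member had passed the limma test. Each gene is counted here by its brightest probe set. The P stalk recruits elongation factors. Of its 3 genes measured, RPLP0 had a difference of 0.17, RPLP2 of -0.22 and RPL12 of -0.20, with a list median of -0.20 (0.069 without degenerative pool A). RPLP0, the base of the stalk and a common reference transcript, read 15.09, 14.87 and 14.71 in degenerative pools, against 14.92, 14.46 and 14.78 in blastocyst pools (limma adjusted p = 0.737). Its pools overlapped, and its other 2 probe sets differed by 0.09 and 0.07. The names of its 2 brighter probe sets mark probes that can also match other transcripts. RPL5 and RPL11, which hold the small ribosomal RNA of the large subunit, were both lower, with a median of -0.14 (-0.072 without degenerative pool A). All 7 proteins measured around the peptide exit tunnel were lower, with a median of -0.19. Without degenerative pool A their median was -0.0014, with 4 lower and 3 higher.

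The small subunit proteins that line the mRNA entry and exit (RPS2, RPS3, RPSA, RPS26 and RPS28) had a median of 0.0046, with 1 of 5 lower. RPS15, whose tail reaches the decoding centre, read 14.16, 14.89 and 14.75 in degenerative pools, against 14.55, 14.81 and 14.76 in blastocyst pools, again with degenerative pool A lowest and the other pools overlapping. Genes whose human counterparts are mutated in Diamond-Blackfan anemia, a failure of red cell formation, numbered 9 among the members, of which 6 were lower and 3 higher, with a median of -0.064. Without degenerative pool A, 4 were lower and 5 higher, with a median of 0.079. RPS19, counted among the higher genes in both splits, lay near the floor. It read 2.12, 2.27 and 3.60 in degenerative pools, against 3.02, 2.40 and 2.44 in blastocyst pools. The 4 probe sets of RPS12 had differences of -0.07 to 0.21 and the 3 of RPS7 of -0.12 to 0.0014. The largest of RPS12 had a standard error of 0.98. For each gene 1 probe set lay near the floor, with a mean of 2.19 in RPS12 and 2.51 in RPS7. RPL7A, a protein of the large subunit, had the largest positive difference of any gene by its brightest probe set: it read 13.41, 13.15 and 12.95 in degenerative pools, against 12.96, 12.76 and 13.12 in blastocyst pools, a difference of 0.22 ± 0.16 (SE, limma adjusted p = 0.734). These pools overlapped.

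Probe sets of the same gene did not always give the same difference. Among the 16 genes with several probe sets, 15 had 2 or more tested, and the gap between the lowest and the highest difference of a gene reached 1.73 in RPS27L, 0.92 in RPL24, 0.91 in RPS15A, 0.67 in RPL9 and 0.53 in RPL3. RPS27L is a paralog of RPS27. Its brighter probe set read 12.12, 13.03 and 13.13 in degenerative pools, against 12.17, 12.58 and 12.94 in blastocyst pools (0.19 ± 0.36, SE). Its dim probe set read 2.45, 2.87 and 2.64 in degenerative pools, against 6.73, 2.64 and 3.22 in blastocyst pools (-1.54 ± 1.18, SE). The larger figure rested on blastocyst pool A alone, as did that of RPL37, which read 2.13, 2.16 and 2.14 in degenerative pools, against 5.31, 2.14 and 2.14 in blastocyst pools (-1.05 ± 0.97, SE). Without blastocyst pool A the difference of RPL37 was 0.0041.

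RPS15A, a small-subunit protein, read 6.04, 7.94 and 7.68 by its dimmer probe set in degenerative pools, against 8.11, 8.17 and 8.33 in blastocyst pools (-0.98 ± 0.55, SE, limma adjusted p = 0.669). Degenerative pool A made up most of that difference, which was -0.39 without it, and the brighter probe set differed by -0.08. RPL9, at the base of the P stalk, had differences of -0.26, 0.13 and 0.41 by its 3 probe sets. The last of these read 9.28, 8.43 and 6.76 in degenerative pools, against 9.15, 7.11 and 6.97 in blastocyst pools, a spread between pools of one group that was wider than the difference between groups. A dim probe set of RPS12 likewise read 9.69, 8.86 and 7.67 in degenerative pools, against 10.30, 7.61 and 7.67 in blastocyst pools. RPL3, which lies at the center that forms the peptide bond, had a difference of 0.16 by its bright probe set and -0.37 by a dim one, and a dim probe set of RPS3 had 0.28. Probe sets with A1 in their name accounted for many of the dim ones: none of 16 had a mean of at least 12, against 61 of the 71 other members. A level of one probe set says nothing of another, since each has its own probes.

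**Figure D4:**
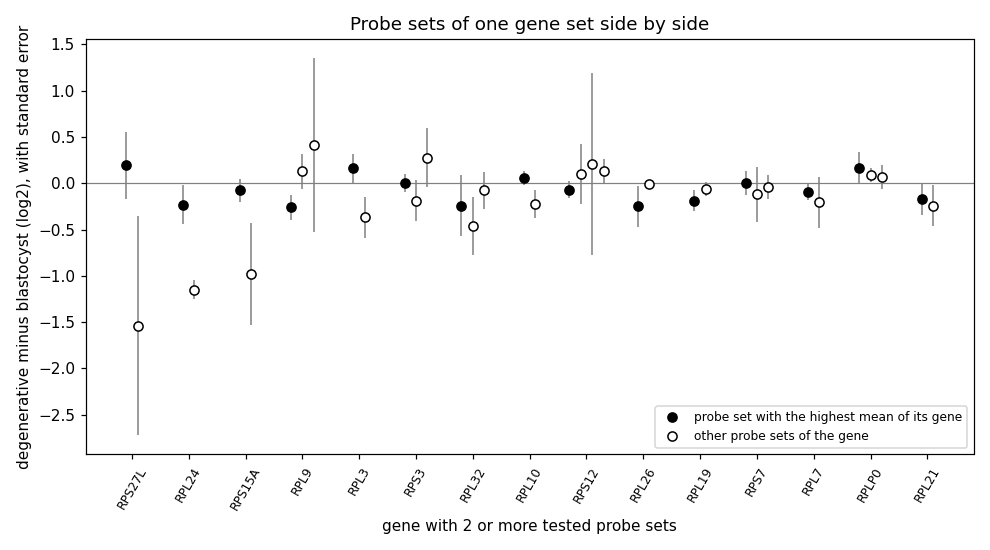
Difference between degenerative embryos and blastocysts (log2, point) with its standard error (bar) for each tested probe set of the 15 genes with 2 or more, ordered by the gap within the gene. Filled points are the brightest probe set of its gene. They lie near 0, and the open points of RPS27L, RPL24 and RPS15A lie at -1.54, -1.15 and -0.98.

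Of 10 ribosomal proteins and paralogs listed outside the symbol rule, 5 were measured, 4 higher and 1 lower, with a median of 0.089. RPL15P, which was not on that list, had 3 probe sets with differences of 0.028, 0.0091 and -0.0017. RACK1, a scaffold protein of the small subunit, read 15.14, 15.12 and 15.03 in degenerative pools, against 14.99, 14.97 and 15.07 in blastocyst pools (0.09, limma adjusted p = 0.696). FAU, a fusion of a ubiquitin-like protein and RPS30, read 13.50, 13.94 and 13.96 in degenerative pools, against 12.82, 13.52 and 13.78 in blastocyst pools (0.42, adjusted p = 0.734). In both genes the pools overlapped. Of the other transcripts known for a terminal oligopyrimidine tract, 12 were measured, 5 lower and 7 higher, with a median of 0.062, and without degenerative pool A 8 were lower and 4 higher, with a median of -0.039. NAP1L1, a histone chaperone, was the only one with an unadjusted p under 0.05, and it read 14.75, 14.47 and 14.32 in degenerative pools, against 15.12, 14.86 and 14.79 in blastocyst pools (-0.41, limma adjusted p = 0.580). These lists and their members were measured on the same arrays as the ribosomal proteins, so that a pool's departure touches them all.

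Genes that build ribosomes lay on the other side of 0. Of 41 ribosome biogenesis factors measured, 30 were higher and 11 lower in degenerative embryos, with a median of 0.28, against 0.0012 over all tested probe sets. Among all 18937 tested probe sets, 9792 were higher and 9145 lower. At an unadjusted limma p of 0.05, 5 factors were higher and 0 lower. The shares of all tested probe sets at that p were 3.34% higher and 5.27% lower, and 6.48% had all degenerative pools above all blastocyst pools. No factor passed at an adjusted p of 0.15. With the replicate block, 1 in place of 5 was higher at the unadjusted p, and that was none of the 4 factors named next. MRTO4, which helps to place the P stalk, read 11.82, 11.28 and 11.04 in degenerative pools, against 10.40, 10.51 and 10.72 in blastocyst pools (0.84, limma adjusted p = 0.518). PES1, of the PeBoW complex for large-subunit RNA, differed by 1.13, RIOK2, a kinase of late small-subunit maturation, by 0.63, and RRP12, which takes part in export of both subunits in yeast, by 0.89, each with no overlap between groups and adjusted p of 0.571 to 0.578. Degenerative pool A was the highest pool for all 4 of these genes, and over the 41 factors it lay above the mean of pools B and C by a median of 0.56. The list median was 0.21 without that pool, with the same split of 30 higher and 11 lower.

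The 20 tested genes of RNA polymerases I and III and of ribosomal RNA transcription had 16 higher and 4 lower, with a median of 0.28 (0.24 without degenerative pool A, with 12 higher and 8 lower). POLR1C, a subunit shared by both polymerases, read 12.39, 12.69 and 12.11 in degenerative pools, against 11.04, 11.57 and 11.65 in blastocyst pools (0.97, limma adjusted p = 0.483). POLR2E, shared by all nuclear RNA polymerases, and MAF1, a repressor of RNA polymerase III, were both higher by 0.78, and TAF1D, of the selectivity factor of RNA polymerase I, was lower, with a difference of -1.22. The adjusted p was 0.577 to 0.580 for these 3 genes. So no gene of ribosomal RNA transcription passed the test.

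Upstream of ribosome synthesis, RPS6KB2, a kinase that phosphorylates RPS6, had the smallest p of the lists outside the members. It read 8.56, 8.13 and 7.93 in degenerative pools, against 7.03, 7.16 and 7.22 in blastocyst pools (1.07, limma adjusted p = 0.398). DDIT4, a stress-induced inhibitor of MTOR, read 12.71, 12.03 and 11.22 in degenerative pools, against 9.55, 10.41 and 10.79 in blastocyst pools (1.74, adjusted p = 0.532). In both genes all degenerative pools lay above all blastocyst pools. EIF4E, which binds the mRNA cap, read 11.83 to 12.13 in degenerative pools, against 12.35 to 12.58 in blastocyst pools (-0.49, limma adjusted p = 0.471). MYC, a driver of ribosome synthesis, read 4.95, 8.24 and 7.66 in degenerative pools, against 9.82, 9.60 and 9.16 in blastocyst pools (-2.57, limma adjusted p = 0.578, and -1.57 without degenerative pool A). In these 2 genes the groups did not overlap. RPS6KB2, DDIT4, EIF4E and MYC were named for having the smallest limma p of their list. At an unadjusted limma p of 0.05, 2 genes of the list were higher and 2 lower. Over all tested probe sets, 6.48% had all degenerative pools above all blastocyst pools and 8.93% had them all below. The 12 tested genes of this list had 7 higher and 5 lower, with a median of 0.17 (0.069 without degenerative pool A). RPS6 itself, the substrate of RPS6KB2, read 14.72, 14.74 and 14.52 in degenerative pools, against 14.86, 14.58 and 14.70 in blastocyst pools, which overlapped.

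**Figure D5:**
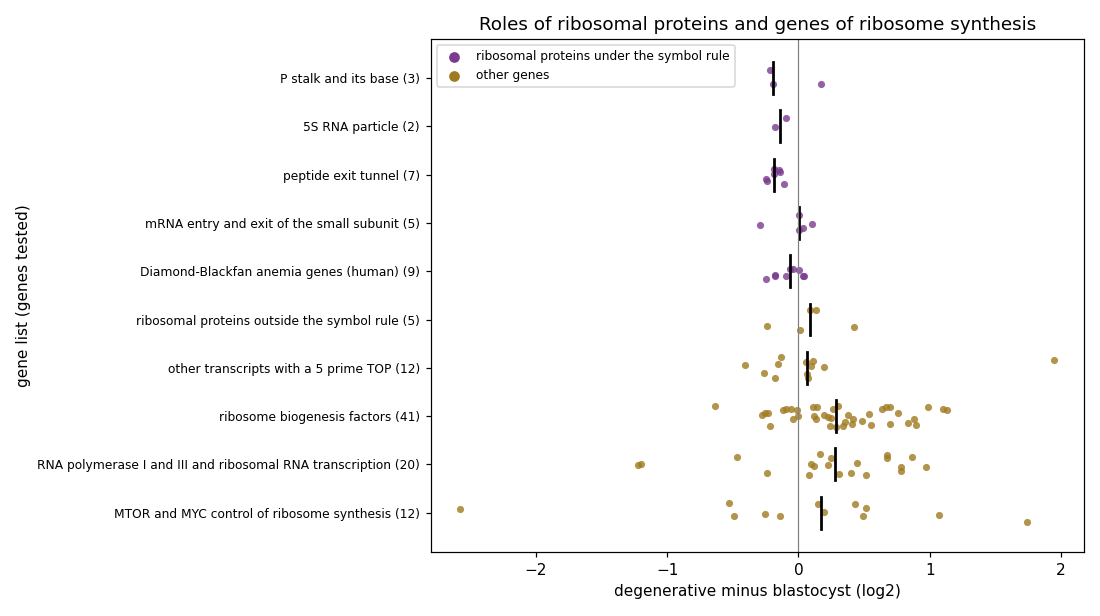
Difference between degenerative embryos and blastocysts (log2) for genes of 10 lists with 2 or more genes tested, 1 point per gene (brightest probe set) and the median as a bar. The lists under the symbol rule have medians of -0.20 to 0.0046, and the lists of ribosome biogenesis and of ribosomal RNA transcription both have a median of 0.28.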

How the data were processed

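RNA of 6 embryo pools was measured on the Affymetrix Bovine Genome Array. The deposited values are log2 expression values that the authors made with GCRMA 2.14.1 (background correction from probe affinities, quantile normalization and median polish). No counts or intensities were used, so the depth behind a value is given only by 3 arrays a group. Symbols came from the platform annotation. The result of 1 further gene list is not reported here. No coordinates or sequences were used here. Control probe sets (20) and probe sets without variation (5079) were removed, as in the study's methods, and 18937 probe sets were fitted with limma 3.58.1 in R 4.3.3, with the group as the only term and Benjamini-Hochberg adjustment over all of them at 0.15. SAM at 15%, over 20 relabelings, was rewritten for R and is an alternative. The scripts were tested on simulated data. The pools are separate samples, and the study's methods say that each held embryos of several cows and bulls, from few bulls in all, so pools share sires. P-values measure the spread between these pools.

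Same-lettered pools deviated together from their group means (r = 0.373 for A, 0.180 for B and 0.275 for C over 18937 probe sets), so a fit with the letter as replicate block was also made; degenerative B correlated better with another letter (0.374). The members and lists were chosen with earlier results of these data known. Named were probe sets called or with an unadjusted p under 0.05, the 8 largest differences in each direction, all probe sets of the 5 genes whose probe sets differed most, RPL24, RPL5 and RPLP0, and up to 4 genes of each further list by p. RPL37A, RPS21, RPL39, RPS15, RPS7 and RPS6 were added after their values had been seen. Alternatives were centring of arrays, a minimum mean of 5, inclusion of unvarying probe sets, a trend of the spread, 1 probe set per gene, updated symbols and leaving out each pool, and, chosen after seeing the data, leaving out both A pools.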

Additional observations from a re-analysis of the deposited data

Results flagged for a closer look

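Among the 20 control probe sets, which enter no comparison, 2 had all degenerative pools above all blastocyst pools. The 3′ probe set of gapd averaged 14.47 in degenerative embryos and 14.24 in blastocysts, a difference of 0.235. The middle probe set of the same transcript averaged 12.99 in degenerative embryos and 12.54 in blastocysts, a difference of 0.453. Across all tested probe sets, 6.48% had no overlap in this direction.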

How the results depend on the processing

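The count of members lower at an unadjusted p of 0.05 was 3. It was 1 with arrays centred on their medians, with a minimum mean of 5, with a trend of the spread and with the replicate block, 4 with unvarying probe sets included, and 1 to 3 when a pool was left out (1 without blastocyst pool A or C). The count at an adjusted p of at most 0.15 was 0; it was 1 by SAM at 15%, and 0 to 1 when a pool was left out, the 1 being RPL24 (-1.26, adjusted p = 0.0768) without degenerative pool C. The median difference was -0.25 to 0.018 when a pool was left out (-0.26 to -0.016 for the large and -0.11 to 0.070 for the small subunit). With arrays centred on their medians it was -0.09 (-0.15 for the large and -0.025 for the small subunit).

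Of 26 named member probe sets, 12 changed sign, always by leaving out pools. Without both A pools the differences were 0.0048 (RPL24, brighter probe set), 0.011 (RPL37), 0.064 (RPL38), 0.053 (RPS15A, brighter), 0.025 (RPS27) and 0.090 (RPS29). With single pools left out, differences ran from -1.58 to 0.0041 (RPL37), -0.95 to 0.30 (RPL38), -0.014 to 0.22 and -0.15 to 1.12 (dimmer probe sets of RPL9), -0.052 to 0.13 (RPLP0, dim), -0.27 to 1.09 (RPS12, the third by brightness), -0.16 to 0.040 (RPS15A, brighter), -1.04 to 0.21 (RPS27), -0.0013 to 0.52 (RPS27L, brighter), -0.95 to 0.12 (RPS29) and -0.0021 to 0.56 (RPS3, dimmest). The sign of the RPLP0 probe set turned without degenerative pool B. The replicate block changed no call of a named probe set, and the 15 named genes outside the members kept their direction and their side of the threshold in all 150 alternatives. The 3 arrays a group limit what can be called.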
